A study of Mus musculus with 37 samples.

Results

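Described here are 40 genes of the cell cycle and of DNA replication, out of 21975 genes in the deposited tables, in astrocytes isolated from the mouse hippocampus. The genes were listed by symbol, with earlier results of these data known, and all 40 were found in the tables. The mice were wild-type males whose strain the labels give as CD31 and the methods as CD1. They received a controlled cortical impact (CCI), a contusion delivered through an opened skull, or a sham surgery with craniectomy and no impact. Both kinds of mouse carried recording electrodes, and tissue was taken 4 months after surgery. Injured mice with post-traumatic epilepsy (PTE+) had repeated seizures in the EEG and injured mice without it (PTE-) did not, so both share the injury and differ in outcome, while sham mice lack the injury. Astrocytes were bound to magnetic beads through the surface antigen ACSA-2, and the contralateral and ipsilateral hippocampus of a mouse gave separate RNA libraries made with a SMART-Seq V4 kit. The contralateral side gave 20 libraries (PTE+ n = 5, PTE- n = 10, sham n = 5) and the ipsilateral side 17 (n = 4, 8 and 5). The question was whether Cenpa, Ccnf, Exo1 and Spdl1 moved together with the other proliferation genes.

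A dividing cell copies its DNA in S phase, after transcription factors such as E2F1 switch on the genes for the replication machinery and for nucleotide supply. It then passes through G2 into mitosis under cyclin-dependent kinases, and the copied chromosomes are held at the centromere, attached to the spindle through the kinetochore, and separated once a checkpoint is satisfied. Most astrocytes of the adult hippocampus do not divide, some re-enter the cycle after injury, and the dentate gyrus holds neural progenitors that do divide. In bulk RNA, fewer cells of a type and less RNA per cell cannot be told apart.

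Contralateral libraries held 25371887 to 55333329 counts and ipsilateral libraries 36925501 to 59846479. On the contralateral side 11756 to 15321 genes were counted at least once per library, and ipsilaterally 9020 to 15545. The lowest of these belonged to the ipsilateral library of PTE- mouse a8_11. Without that mouse 5 rather than 4 members had an unadjusted p under 0.05 in the comparison of the side differences described further on (edgeR). Of all genes 3.37% rather than 2.94% did. The 10 astrocyte markers examined (such as Slc1a3, Aqp4 and Aldh1l1) summed to 12370 to 20678 TPM in the contralateral libraries and to 5711 (a8_11) to 21149 TPM in the ipsilateral ones. TPM corrects the share of a transcript in its library for gene length and is used here to compare different genes. CPM, a gene's counts scaled to the library total after TMM normalization, is used to compare a gene between libraries. No more than 3 counts of a gene in a library, which is 0.0539 to 0.0910 CPM in the contralateral PTE+ and sham libraries, was taken as the counting limit. This limit covers counting error only, because the kit amplifies cDNA and no molecular identifiers were used.

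The members fell into a group seen in nearly every library and a larger group that was present at high counts in some libraries and absent from others. Over the contralateral libraries, 525 of the 800 values (65.6%) were above 3 counts, 224 were at 0 and 51 were at 1 to 3 counts. Of the 525, 417 (79.4%) were above 100 counts. Over the ipsilateral libraries, 457 of 680 values (67.2%) were above 3 counts, of which 363 (79.4%) were above 100. Over all 40 members, the steady ones included, values above 3 and up to 100 counts were thus a minority of the detected ones. This does not hold for each gene, since Exo1 was mostly detected at a few counts. The group mean of a gene at high counts in some libraries and absent from others rests on a few libraries. More than 3 counts in at least 80% of the libraries of a hemisphere were reached by 14 members contralaterally and by 14 ipsilaterally, 12 of them in both. Among all genes above 3 counts somewhere, 63.8% contralaterally and 64.6% ipsilaterally reached this share. Only Rrm1, Tyms, E2f1 and Hmgb2 among the 40 members exceeded 3 counts in all 37 libraries.

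**Figure D1:**
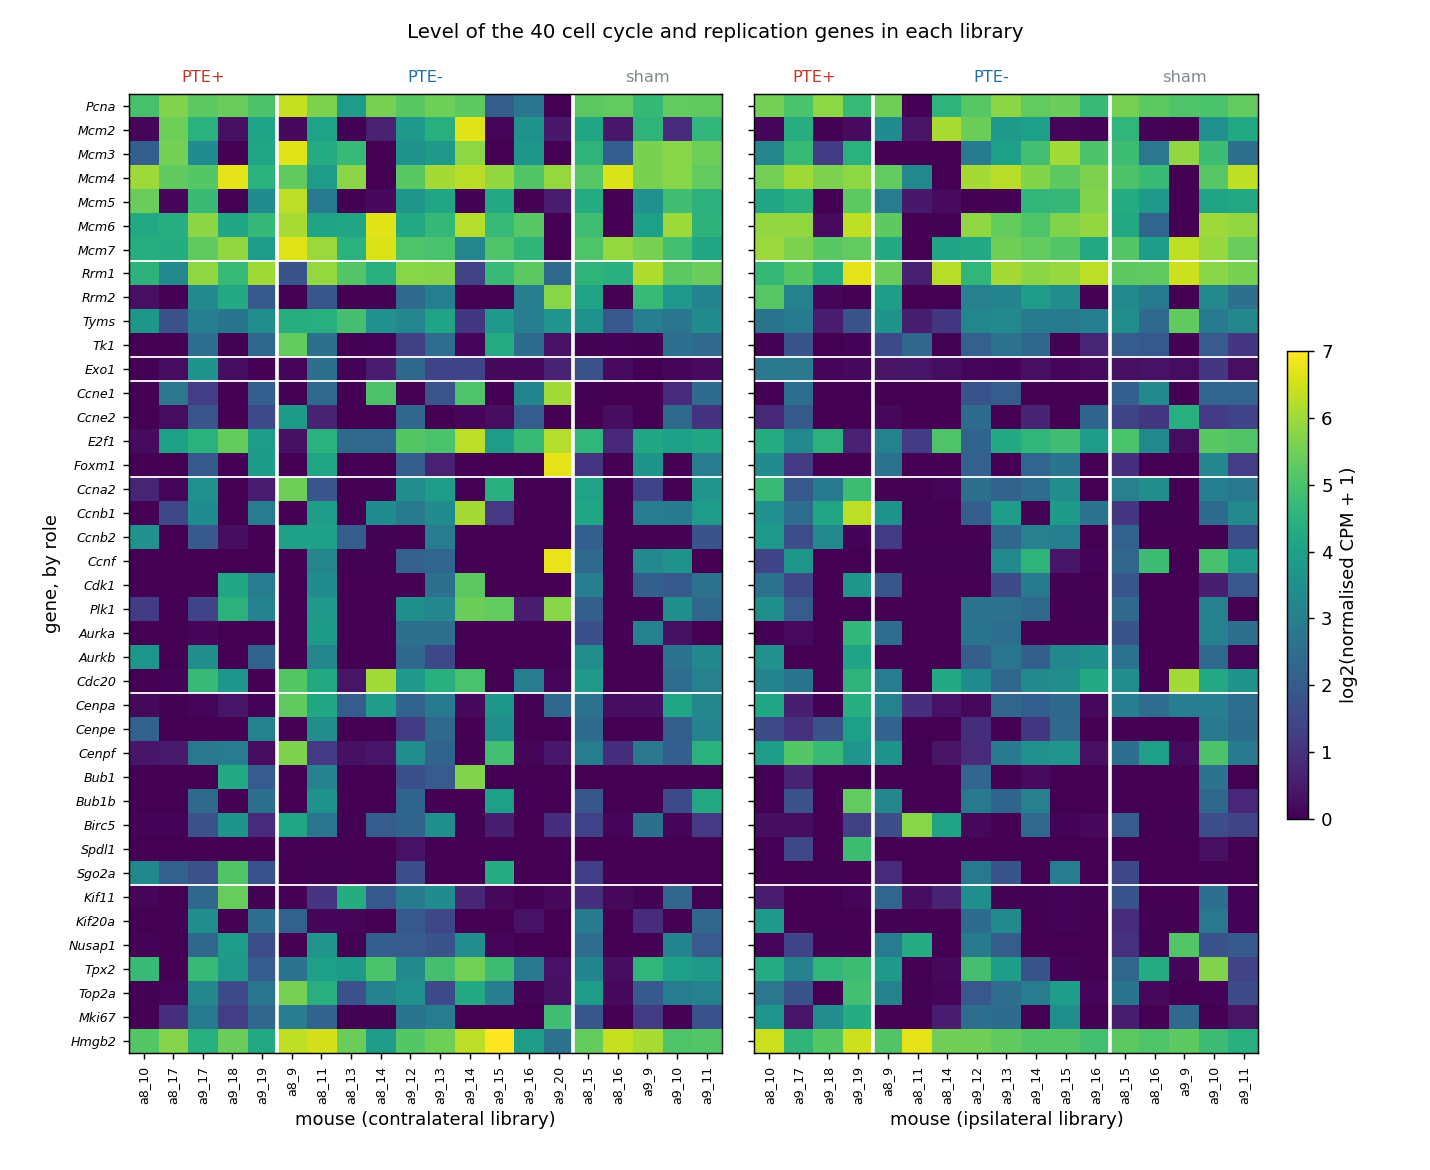
Level of each of the 40 genes (rows, grouped by role with white lines) in each library (columns, grouped by PTE+, PTE- and sham), as log2(normalised CPM + 1) in colour, for contralateral (left) and ipsilateral (right) libraries. Rrm1, Tyms, E2f1 and Hmgb2 were above 3 counts in all 37 libraries, and Spdl1 in 1 contralateral and 3 ipsilateral ones.

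Detection differed by role. The 7 replication genes exceeded 3 counts in 87.1% of contralateral and 84.9% of ipsilateral values, and the 4 nucleotide supply genes in 81.2% and 83.8%. The 7 spindle and chromosome structure genes did so in 72.1% and 63.9%, and the 4 cyclins and transcription factors of the G1 to S step in 65.0% and 64.7%. The 9 cyclins and kinases of the S to M step came to 50.6% and 58.8%, and the 8 kinetochore and checkpoint genes to 49.4% and 54.4%. Exo1, the single DNA repair gene, exceeded the limit in 75.0% of contralateral and 88.2% of ipsilateral libraries. The kinetochore genes and mitotic kinases were seen least often in both hemispheres.

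The number of members above 3 counts in a library overlapped between the groups. Contralaterally it was 20, 17, 33, 25 and 32 of 40 in the PTE+ libraries, 17 to 37 with a median of 24 in PTE-, and 35, 16, 25, 30 and 34 in sham. Ipsilaterally it was 33, 36, 18 and 27 in PTE+, 13 to 34 with a median of 28 in PTE-, and 36, 21, 15, 36 and 34 in sham. The number rose with the number of other genes above 3 counts, which ran from 10274 to 14690 contralaterally and from 7653 to 14811 ipsilaterally. Contralaterally Pearson's r was 0.72 (permutation p = 0.00045, adjusted over the 2 hemispheres p = 0.00045) and Spearman's rho 0.79 (permutation p = 7e-05, adjusted p = 7e-05) over 20 libraries. Ipsilaterally r was 0.88 and rho 0.93 over 17 libraries (permutation p = 1e-05 for each, the smallest these permutations can give, adjusted p = 2e-05). Without the 2 libraries farthest from the median number of genes, r was 0.78 and 0.85. Within mice whose names start with a8 and a9, r was 0.70 (n = 8) and 0.76 (n = 12) contralaterally and 0.90 (n = 6) and 0.87 (n = 11) ipsilaterally. How many members a library showed therefore went with how many genes it showed at all.

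**Figure D2:**
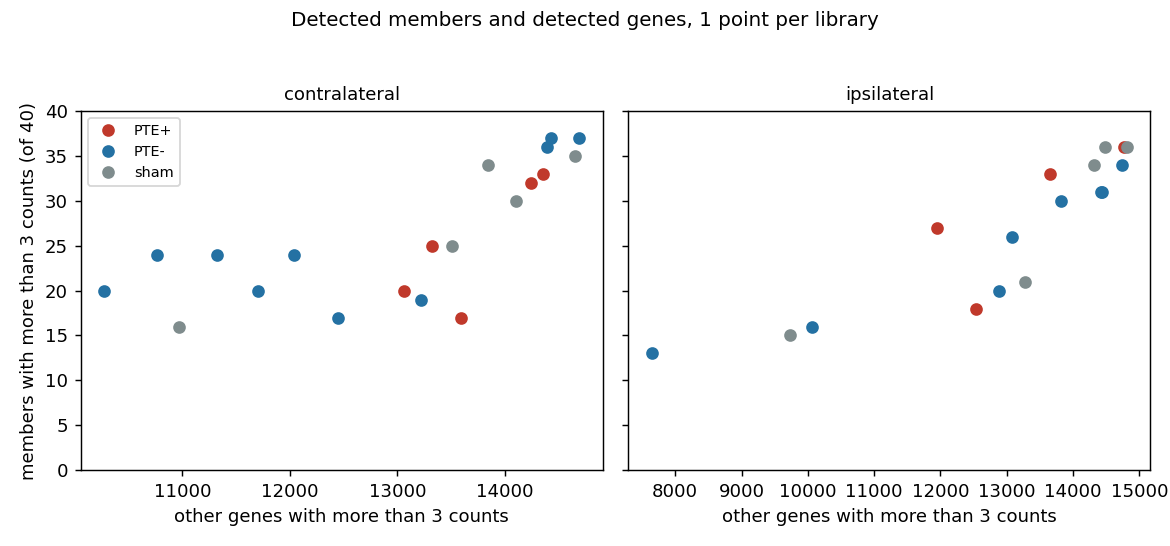
Number of the 40 members with more than 3 counts (vertical axis) against the number of other genes with more than 3 counts (horizontal axis), 1 point per library, coloured by group, for each hemisphere. The points rise together (rho 0.79 contralaterally and 0.93 ipsilaterally), and PTE+, PTE- and sham libraries are spread along the same line.

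Among the replication genes, Pcna, the sliding clamp that holds the DNA polymerase on its template, had the highest median level of all members on the TPM scale, 43.4 TPM contralaterally and 44.2 TPM ipsilaterally. It ran from 38.4 to 53.4 TPM in the contralateral PTE+ libraries, from 0 to 87.2 TPM in PTE- and from 28.5 to 54.5 TPM in sham, and the groups overlapped. Ipsilaterally it ran from 34.7 to 69.6 TPM in PTE+, from 0 (mouse a8_11) to 56.2 TPM in PTE- and from 35.4 to 51.5 TPM in sham. The Mcm genes encode the subunits of the helicase that opens the DNA ahead of the fork. Their median levels ran from 4.925 TPM (Mcm2) to 20.6 TPM (Mcm4) contralaterally and from 4.06 TPM (Mcm2) to 30.4 TPM (Mcm7) ipsilaterally. The subunits act in equal number in the helicase, but their transcripts were not present in the same libraries: contralateral PTE- mouse a8_14 had 0 TPM of Mcm4 and the highest Mcm6 level of any contralateral library, 53.2 TPM. Mcm2 exceeded 3 counts in 17 of 20 contralateral and 13 of 17 ipsilateral libraries, and Mcm5 in 14 and 13.

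Nucleotide supply showed the same split between steady and intermittent genes. Rrm1, the large subunit of ribonucleotide reductase, had a median of 14.8 TPM contralaterally and 21.0 TPM ipsilaterally. Rrm2, the small subunit whose level in other cells follows S phase, exceeded 3 counts in 13 of 20 and 12 of 17 libraries, with medians of 2.99 and 5.05 TPM. Tyms (thymidylate synthase) had medians of 9.91 and 10.95 TPM, while Tk1 (thymidine kinase) exceeded 3 counts in 12 and 11 libraries, with medians of 1.175 and 1.94 TPM. The steady genes, Rrm1 and Tyms, were above 3 counts in every library.

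Among transcription factors of the cycle, E2f1 had medians of 9.71 and 9.10 TPM, whereas Foxm1, which drives mitotic genes, exceeded 3 counts in 9 contralateral and 9 ipsilateral libraries. Hmgb2, a chromatin protein that is high in dividing progenitors and is also made by other cells, had medians of 42.2 and 35.0 TPM. The proliferation marker Mki67 exceeded 3 counts in 12 of 20 and 11 of 17 libraries, and Top2a, the topoisomerase that untangles copied chromosomes, in 17 and 12. Mki67 reached at most 28.2 CPM contralaterally and 19.3 CPM ipsilaterally. In 4 of 4 ipsilateral PTE+ libraries it was above 3 counts, with a median of 10.9 CPM (0.353 to 19.3), against 4 of 8 in PTE- (median 0.237, 0 to 10.2 CPM) and 3 of 5 in sham (median 0.298, 0 to 4.27 CPM). The ranges overlapped. Cdk1, the kinase of mitotic entry, was above 3 counts in 9 libraries of each hemisphere, and its partners Ccnb1 and Ccna2 in 13 and 12, and in 11 and 12.

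Apart from Cenpa and Exo1, the members seen in at least 80% of the libraries of a hemisphere had no unadjusted p under 0.05 in the 6 group comparisons by edgeR's quasi-likelihood test. The smallest belonged to Cenpf, a kinetochore protein, with an ipsilateral log2 fold change of 2.08 in PTE+ versus PTE- (standard error 1.27, p = 0.119, adjusted p = 1.0 by edgeR). Its levels were 1.85 to 8.26 TPM in PTE+, 0 to 4.85 TPM in PTE- and 0.02 to 5.40 TPM in sham, and the exact permutation test on log2(CPM + 1) gave p = 0.0162 for PTE+ versus PTE- (adjusted p = 1.0). The PTE+ and PTE- ranges overlapped.

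Cenpa, Ccnf, Exo1 and Spdl1 act at different steps. Cenpa encodes the histone H3 variant that marks the centromere (chromosome 5, 30666777 to 30674830 on GRCm38, GENCODE M21). Ccnf encodes cyclin F, the substrate receptor of an SCF ubiquitin ligase in S and G2 phase (chromosome 17, 24222198 to 24251484). Exo1 is a nuclease of mismatch repair and of DNA end resection (chromosome 1, 175880581 to 175913489). Spdl1 encodes spindly, which recruits dynein to the kinetochore (chromosome 11, 34809190 to 34833641). Many mitotic genes share a promoter element called CHR (TTTGAA) and CCAAT boxes, and many S phase genes an E2F site, so the promoters are shown to let the shared elements be seen. RefSeq promoters of build GRCm38.p6, from 250 bases before to 30 after the start of the gene, were searched on both strands for TTTGAA, for CCAAT and for TTTCGCGC or TTTGGCGC as E2F sites. The start is that of RefSeq, which for Cenpa and Ccnf differs from the GENCODE start given above. The table matched 32 of the 40 members, Exo1 not among them. Capitals mark CHR and CCAAT matches on either strand (TTCAAA and ATTGG on the reverse one), and none of the 3 sequences held an E2F match.
Ccnf, minus strand, chr17:24251380-24251659: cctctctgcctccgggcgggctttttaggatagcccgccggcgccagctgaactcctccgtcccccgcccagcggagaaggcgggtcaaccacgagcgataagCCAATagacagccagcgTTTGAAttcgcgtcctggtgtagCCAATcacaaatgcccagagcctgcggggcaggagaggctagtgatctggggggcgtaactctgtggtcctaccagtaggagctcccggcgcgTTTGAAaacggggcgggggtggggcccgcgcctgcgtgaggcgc
Cenpa, plus strand, chr5:30666636-30666915: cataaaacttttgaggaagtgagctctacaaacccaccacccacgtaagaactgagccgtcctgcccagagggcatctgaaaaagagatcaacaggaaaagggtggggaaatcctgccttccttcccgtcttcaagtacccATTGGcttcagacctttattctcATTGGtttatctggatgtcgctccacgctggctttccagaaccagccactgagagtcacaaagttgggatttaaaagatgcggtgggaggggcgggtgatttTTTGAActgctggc
Spdl1, minus strand, chr11:34833612-34833891: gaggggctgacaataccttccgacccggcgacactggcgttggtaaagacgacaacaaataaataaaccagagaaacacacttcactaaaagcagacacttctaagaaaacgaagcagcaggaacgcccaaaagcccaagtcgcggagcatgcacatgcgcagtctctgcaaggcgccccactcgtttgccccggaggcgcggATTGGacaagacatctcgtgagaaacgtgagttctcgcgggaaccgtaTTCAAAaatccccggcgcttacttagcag
All 3 promoters held at least 1 CHR match and 1 CCAAT match. Among the 32 members, 12 (37.5%) held TTTGAA, 26 (81.2%) CCAAT and 4 (12.5%) an E2F match. Of 27025 promoters of the same length in the table, 17.4%, 36.6% and 0.770% did. A match is a description of these letters and not a tested binding site.

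Cenpa was low in every contralateral PTE+ library. Its levels there were 0.102, 0.0251, 0.0819, 0.324 and 0.0524 CPM, from 1 to 18 counts. In the contralateral PTE- libraries it ran from 0.0290 to 38.4 CPM with a median of 5.27, and in the sham libraries it was 5.07, 0.169, 0.207, 16.6 and 8.21 CPM. Of the 10 PTE- libraries, 8 were above the highest PTE+ library, and 2 (mice a9_14 and a9_16) lay within the PTE+ range, as did sham mice a8_16 and a9_9. The PTE+ mean was 0.117 ± 0.119 CPM (SD, n = 5), the PTE- mean 9.98 ± 11.6 CPM (SD, n = 10) and the sham mean 6.04 ± 6.79 CPM (SD, n = 5). The log2 fold change of PTE+ to PTE- was -6.37 (standard error 1.73), with an unadjusted p of 0.00133 and an adjusted p of 1.0 by edgeR's quasi-likelihood test over 14642 genes. The exact permutation test gave p = 0.00932 (two-sided, adjusted p = 1.0). Against sham the log2 fold change was -5.65 (standard error 1.72, p = 0.0034, adjusted p = 1.0 by edgeR, exact permutation p = 0.0397). PTE- and sham differed by 0.72 (standard error 1.26, p = 0.57 by edgeR). DESeq2 gave an adjusted p under 0.05 to both PTE+ contrasts, so the call depends on the tool. Without any 1 library the log2 fold change to PTE- ran from -7.19 to -5.82. With the prefix of the mouse's name as covariate the log2 fold change of PTE+ to PTE- was -6.09, and both prefixes showed the low levels: up to 0.102 CPM in 2 PTE+ mice against 3.09 to 38.4 CPM in 4 PTE- mice named a8, and up to 0.324 CPM in 3 against 0.0290 to 12.03 CPM in 6 named a9.

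On the ipsilateral side, Cenpa was not low in PTE+ as a group. The PTE+ libraries held 17.4, 0.512, 0.0205 and 19.4 CPM, with the high levels in mice a8_10 and a9_19. The PTE- libraries ran from 0.115 to 7.36 CPM with a median of 2.10, and the sham libraries held 6.98, 4.64, 7.01, 6.93 and 4.81 CPM. The sham libraries were close together, and the PTE+ libraries lay both above and below all of them. The log2 fold change of PTE+ to PTE- was 1.89 (standard error 1.33, p = 0.172, adjusted p = 1.0 by edgeR). PTE- to sham was -1.27 (standard error 1.26, p = 0.329 by edgeR), while the exact permutation test of the log2 levels gave p = 0.021 (adjusted p = 1.0), and PTE+ to sham was 0.62 (standard error 1.51, p = 0.685 by edgeR).

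Ccnf was at 0 counts in all 5 contralateral PTE+ libraries. It exceeded 3 counts in 4 of 10 PTE- libraries, with a lowest level of 0, a median of 0.0102 and a highest of 110.1 CPM (mouse a9_20), and in sham the levels were 4.28, 0, 8.86, 10.8 and 0 CPM. The 6 other PTE- libraries and 2 sham libraries were at the counting limit too, so the groups overlapped. Against the limit of 3 counts per library, the PTE+ mean was at least 171-fold lower than the PTE- mean, and at least 23.4-fold lower without mouse a9_20. It was at least 65.4-fold lower than the sham mean, and 44.8-fold without mouse a9_10. edgeR's unadjusted p was 0.00739 against PTE- and 0.0126 against sham (adjusted p = 1.0 for each), and the exact permutation test gave p = 0.197 and p = 0.167. Ipsilaterally Ccnf was 1.67, 12, 0 and 0 CPM in PTE+, 0 to 22.6 CPM with a median of 0.0416 in PTE-, and 3.99, 27.4, 0, 30.5 and 12.3 CPM in sham. These groups overlapped, and no ipsilateral contrast of Ccnf had an unadjusted p under 0.05 (p = 0.916, p = 0.36 and p = 0.418 by edgeR for PTE+ to PTE-, PTE- to sham and PTE+ to sham).

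Exo1 was detected in most libraries at a few counts, with a high level in some. In the ipsilateral PTE+ libraries it was 6.04, 5.81, 0.0818 and 0.118 CPM. In PTE- it ran from 0.0429 to 0.310 CPM with a median of 0.174, and in sham it was 0.210, 0.264, 0.183, 1.19 and 0.224 CPM. Mice a8_10 and a9_17 were above every PTE- and sham library, and the other 2 PTE+ libraries lay within the PTE- range. The PTE+ mean was 3.01 ± 3.36 CPM (SD, n = 4), against 0.170 ± 0.104 CPM (SD, n = 8) for PTE-. The log2 fold change was 4.13 (standard error 1.204, unadjusted p = 0.00293, adjusted p = 1.0 by edgeR), and the exact permutation test gave p = 0.0707. Without library a8_10 it was 3.54 (unadjusted p = 0.0128 by edgeR), and without a9_17 it was 3.59 (unadjusted p = 0.0114 by edgeR). Against sham it was 2.86 (standard error 1.38, p = 0.0524 by edgeR). Contralaterally Exo1 was 0.0255, 0.176, 11.01, 0.198 and 0 CPM in PTE+, 0.0444 to 4.95 CPM with a median of 0.541 in PTE-, and 2.31, 0.148, 0.0189, 0.0689 and 0.158 CPM in sham. Here the groups overlapped, and the log2 fold change of PTE+ to PTE- was 0.73 (standard error 1.502, p = 0.632 by edgeR).

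Spdl1 was above 3 counts in 4 of 37 libraries. Contralaterally the single one was PTE- mouse a9_12, with 12 counts (0.279 CPM), and the other 19 libraries had 0 counts. Ipsilaterally it was 0, 1.82, 0 and 27.2 CPM in PTE+, with 103 counts in mouse a9_17 and 1384 counts in mouse a9_19. It was 0 in all 8 PTE- libraries, and 0 in 4 sham libraries with 11 counts (0.221 CPM) in mouse a9_10. Against the counting limit, the ipsilateral PTE+ mean was at least 111-fold higher than the PTE- mean and at least 9.24-fold higher without a9_19, on 2 of 4 libraries. The low-count filter removed Spdl1 within a hemisphere, and the exact permutation test gave p = 0.0909 for ipsilateral PTE+ versus PTE-. The other 33 libraries held 0 counts of Spdl1, in all 3 groups.

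**Figure D3:**
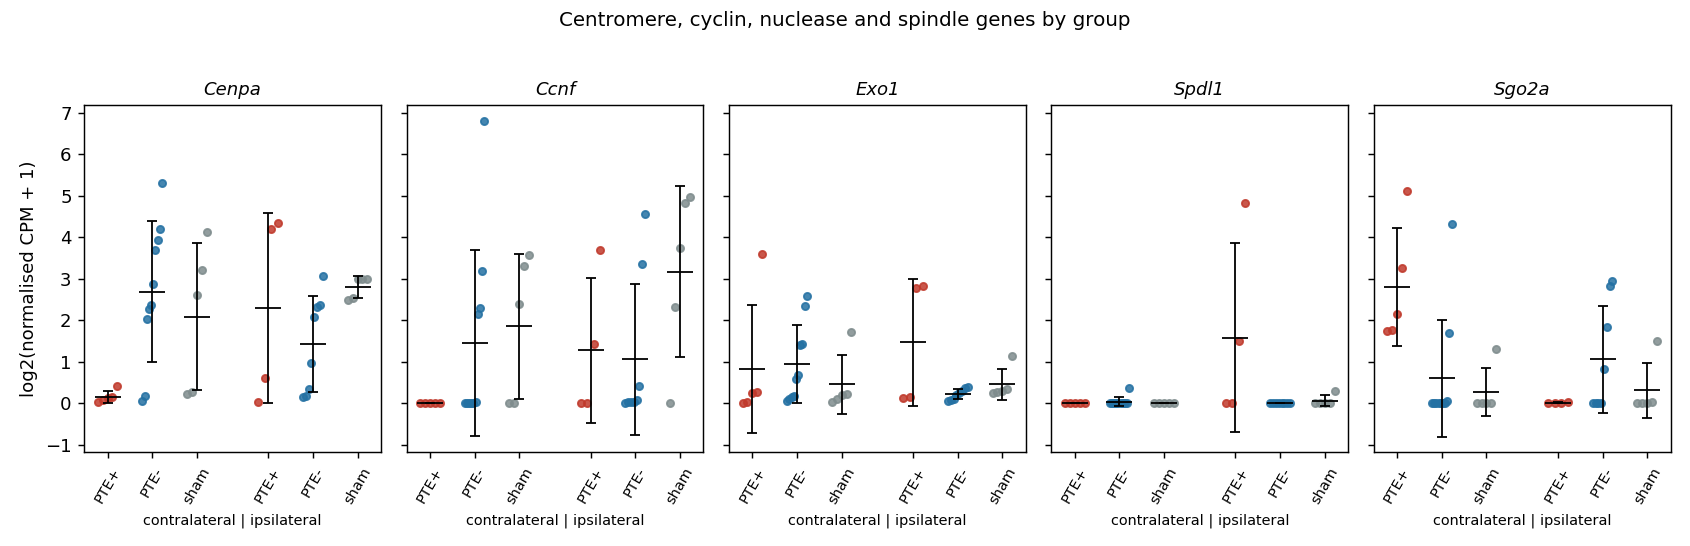
Level of Cenpa, Ccnf, Exo1, Spdl1 and Sgo2a as log2(normalised CPM + 1) in each library (points), with the mean (long bar) and SD (error bars) of each group, contralateral groups on the left and ipsilateral ones on the right of each panel. All 5 contralateral PTE+ libraries are low for Cenpa and at 0 for Ccnf, and all 5 are above 3 counts for Sgo2a, and all 4 ipsilateral PTE+ libraries are at the limit for Sgo2a.

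Contralaterally 6 of 7 tested kinetochore and checkpoint genes (median -0.56 on the log2 scale) had a negative fold change of PTE+ to PTE-. The same held for 8 of 9 cyclins and kinases of the S to M step (median -1.37). It held for 4 of 4 G1 to S genes (median -1.55), 3 of 4 nucleotide supply genes (-0.58) and 4 of 7 spindle and chromosome structure genes (-0.44). Of the replication genes 3 of 7 were negative (median 0.0008), and Exo1 was positive. Over all genes the median was -0.05, with 46.7% higher in PTE+. Sgo2a, a shugoshin that protects cohesion at the centromere, was above 3 counts in all 5 contralateral PTE+ libraries, at 8.55, 3.44, 2.32, 33.4 and 2.41 CPM. It was above 3 counts in 2 of 10 PTE- libraries (highest 18.99 CPM) and 1 of 5 sham libraries (1.46 CPM), so that only PTE- mouse a9_15 fell inside the span of the PTE+ levels. The log2 fold change to PTE- was 2.24 (standard error 2.07, p = 0.292, adjusted p = 1.0 by edgeR), and 5.30 without mouse a9_15 (p = 0.0214 by edgeR). That mouse was singled out by its level, so the p without it is no test of the difference. The exact permutation test gave p = 0.0143 against PTE- and p = 0.00794 against sham (adjusted p = 1.0 for each). Ipsilaterally the pattern against PTE- was opposite: the 4 PTE+ libraries held at most 1 count, and 4 of 8 PTE- libraries exceeded 3 counts with up to 6.71 CPM. Of the ipsilateral sham libraries only 1 of 5 exceeded 3 counts (mouse a8_15, 1.84 CPM, next 0.0201 CPM). PTE+ was at least 35.6-fold lower than PTE- (p = 0.0279, adjusted p = 1.0 by edgeR), and at least 23.8-fold without PTE- mouse a9_15. The exact permutation test gave p = 0.234 there. Without library a8_10, a9_17 or a9_19 of the PTE+ group the unadjusted p was 0.0666, 0.0661 and 0.0661 by edgeR.

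Aurka, a kinase of the spindle poles, was at or under 3 counts in all 5 contralateral PTE+ libraries and above it in 3 of 10 PTE- libraries (5.02, 4.99 and 12.98 CPM) and 3 of 5 sham libraries. PTE+ was at least 31.4-fold lower than PTE- (p = 0.0368 by edgeR) and at least 27.3-fold lower than sham (p = 0.0448 by edgeR), and at least 15.2-fold and 8.52-fold lower without the highest library of the other group. Bub1, a kinase of the spindle checkpoint, was at 0 in all 5 contralateral sham libraries and above 3 counts in 4 of 10 PTE- and 2 of 5 PTE+ libraries. PTE- was at least 87.7-fold higher than sham (p = 0.0123 by edgeR), at least 19.97-fold without mouse a9_14. PTE+ was at least 59.4-fold higher than sham (p = 0.0158 by edgeR), at least 10.5-fold without mouse a9_18. The adjusted p of each of these was 1.0, and in each the 2 groups overlapped at 0. Exact permutation tests gave p = 0.432 and p = 0.167 for Aurka against PTE- and sham, and p = 0.267 and p = 0.444 for Bub1 in PTE- and PTE+ against sham.

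By count, few members passed even an unadjusted threshold, and none passed the adjusted one in edgeR. In the contralateral comparison of PTE+ with PTE-, 3 of 39 tested members had an unadjusted p under 0.05, against 2.21% of all genes tested, and all 3 (Cenpa, Ccnf and Aurka) were lower in PTE+. With adjustment, 0 of 39 members passed in edgeR, against 0.00683% (1 gene) of all genes, with 2 in DESeq2 (Cenpa and Ccnf, against 0.172% of all genes) and 0 in limma on log2(TPM + 1) and in the exact permutation test. In PTE- versus sham, 1 of 39 (Bub1, higher) had an unadjusted p under 0.05, against 1.54%. In PTE+ versus sham there were 4 of 39 (Cenpa, Ccnf and Aurka lower, Bub1 higher), against 1.23%. These comparisons share their sham or PTE+ libraries. Cenpa, Ccnf, Exo1 and Spdl1 were listed with earlier results of these data known. The paper gives Ccnf contralaterally and Spdl1 ipsilaterally among its top genes of PTE+ versus PTE-. The shares of members, here and between the sides, are therefore no test of the list. Ipsilaterally, 2 of 38 members (Exo1 higher, Sgo2a lower) had an unadjusted p under 0.05 in PTE+ versus PTE-, against 1.75%, and 0 of 38 in PTE- versus sham (1.58%) and in PTE+ versus sham (1.66%). With adjustment 0 members passed in the other 5 comparisons by edgeR, against 0.0% of all genes, and DESeq2 gave 2 in contralateral PTE+ versus sham (Cenpa and Ccnf), against 0.2% of all genes. In the other 4 comparisons DESeq2 gave 0 members, against 0.152% of all genes in contralateral PTE- versus sham, and 0.454%, 0.117% and 0.44% in ipsilateral PTE+ versus PTE-, PTE- versus sham and PTE+ versus sham.

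The direction of the members as a whole depended on the scale contralaterally. Ipsilaterally it was the same on both scales for PTE+ versus PTE-. Contralaterally, 28 of 39 tested members had a negative fold change of PTE+ to PTE- in edgeR, with a median of -0.56 on the log2 scale against -0.05 over all 14642 genes. With limma on log2(TPM + 1), 18 of 39 were lower, and the median was 0.04 against 0.28 over all genes, so the sign of the members' median depends on the scale. Relative to all genes, of which 46.7% were higher in PTE+ by edgeR and 71.0% on the TPM scale, the members were lower on both. Against sham, 28 of 39 were higher in PTE- (median 0.64, all genes 0.07), with 55.3% of all genes higher. On the TPM scale it was 17 of 39 (median -0.11, all genes -0.22), with 31.9% of all genes higher. In contralateral PTE+ versus sham, 20 of 39 were higher by edgeR (median 0.04, all genes 0.03), with 52.5% of all genes higher. On the TPM scale it was 15 of 39 there (median -0.10, all genes 0.04), with 53.9% of all genes higher. Ipsilaterally, 25 of 38 were higher in PTE+ than in PTE- (median 0.60, all genes -0.01), with 49.3% of all genes higher. On the TPM scale it was 29 of 38 (median 0.34, all genes 0.25), with 64.8% of all genes higher, so the members were nearer to all genes there. In ipsilateral PTE- versus sham, 19 of 38 were higher by edgeR (51.5% of all genes) and 15 of 38 on the TPM scale (46.8%). In PTE+ versus sham these were 23 of 38 (50.1%) and 22 of 38 (62.1%).

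The side of the brain was compared in the 17 mice with both libraries. In PTE+ mice, 6 of 40 members had an unadjusted p under 0.05 in edgeR, against 2.93% of all 15731 genes tested, with Cenpa, Ccnf, Spdl1 and Aurka higher and Sgo2a and Kif11 lower on the ipsilateral side. In sham mice there was 1 (Bub1, higher, above 3 counts in a single library), against 2.05%, and in PTE- mice 2 (Exo1 and Spdl1, lower), against 4.56%. Cenpa in PTE+ mice was higher ipsilaterally by 6.02 on the log2 scale (standard error 1.96, p = 0.00417, adjusted p = 1.0 by edgeR). Ccnf was at least 47.0-fold and Spdl1 at least 99.8-fold higher on the ipsilateral side, each above 3 counts in 2 of 4 mice (at least 7.67-fold without mouse a9_17 and 8.33-fold without mouse a9_19), and Sgo2a at least 207-fold lower (78.4-fold without mouse a9_18), with all 4 mice above 3 counts on the contralateral side. Aurka was at least 83.1-fold higher, a value that rests on mouse a9_19 (24.02 CPM), since the next ipsilateral level was 0.159 CPM and no fold could be given without that mouse. Kif11, a spindle motor, was 0.0764, 4.15, 40.8 and 0.0262 CPM contralaterally and 0.440, 0.0176, 0 and 0.0590 CPM ipsilaterally in mice a8_10, a9_17, a9_18 and a9_19, higher contralaterally in 2 of 4 mice beyond 3 counts. Its log2 fold change was -6.40 (standard error 2.83, p = 0.0305 by edgeR). For Exo1 in PTE- mice the log2 fold change was -3.28 (standard error 1.34, p = 0.0199, adjusted p = 0.742 by edgeR), and Spdl1 there rests on 12 counts in 1 library. In exact tests that swap the sides within mice, the smallest possible p is 0.0625 for 5 sham and 0.125 for 4 PTE+ mice, so the threshold could not be reached there. In PTE- mice this test gave p = 0.0469 for Exo1. With the mouse as a replicate block, 0 members had an unadjusted p under 0.05 in sham mice (0.331% of all genes), 1 in PTE- mice (Tpx2, lower, against 2.0%) and 1 in PTE+ mice (Sgo2a, lower, p = 0.00334 by edgeR, against 0.763%). In that paired fit the value for Cenpa in PTE+ mice was 4.61 (standard error 3.04, p = 0.147 by edgeR), and p was 0.0892 for Ccnf, 0.0811 for Spdl1, 0.475 for Aurka and 0.489 for Kif11, and 0.158 for Exo1 in PTE- mice.

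The difference between the side differences of PTE+ and PTE- mice was tested directly, and 4 of 40 members had an unadjusted p under 0.05, against 2.94% of all genes. It was 8.22 on the log2 scale for Cenpa (standard error 2.30, p = 0.00109, adjusted p = 1.0 by edgeR, exact permutation p = 0.0202), with Ccnf (p = 0.0258, exact permutation p = 0.416) and Spdl1 (p = 0.00206, exact permutation p = 0.0727) in the same direction and Sgo2a (p = 0.0222, exact permutation p = 0.00202) in the opposite one by edgeR. In the paired fit with the mouse as a replicate block, the value for Cenpa was 6.62 (standard error 3.498, p = 0.0746 by edgeR) and only Sgo2a kept an unadjusted p under 0.05 (p = 0.00532, against 1.16% of all genes), so the block removes the other 3. The adjusted counts in edgeR were 0 in all 4 side comparisons, against 0.0% of all genes, with and without the block, while DESeq2 gave 1 in sham (Bub1, against 0.795% of all genes), 1 in PTE- (Spdl1, against 0.86%), 3 in PTE+ (against 1.65%) and 3 in the difference (against 1.3%), with Cenpa, Ccnf and Spdl1 in both of the last.

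A member seen on 1 side of a mouse was often not seen on the other. Rrm1, Tyms, E2f1 and Hmgb2 exceeded 3 counts on both sides of all 17 mice, and Pcna and Mcm7 in 16. Cenpa did so on both sides in 13 mice and on a single side in 4, and Exo1 in 11 and 6. Ccnf was above 3 counts on both sides in 3 mice, on a single side in 9 and on neither in 5, and Spdl1 in 0, 4 and 13. Mki67 came to 8, 5 and 4.

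Whether the 4 genes moved with the other proliferation genes was examined across the libraries of a hemisphere, on log2(CPM + 1), for each other member above 3 counts in at least 5 libraries. This gave 302 relations, with pairs among the 4 genes entered from both sides. Most were weakly positive, 233 of 302, and 28 had an unadjusted permutation p under 0.05 for Spearman's rho, but none had an adjusted one over the 302 (smallest 0.294, and 0.142 for Pearson's r). The median rho contralaterally was 0.22 for Cenpa, 0.15 for Ccnf, 0.20 for Exo1 and 0.14 for Spdl1. Ipsilaterally it was 0.20, 0.11, 0.04 and 0.15. The number of genes that a library showed moves with these values too: 37 of the 40 members contralaterally and 36 ipsilaterally had a positive rho with it, with medians of 0.30 and 0.37. Its part in the relations was not tested.

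The closest members were not the same in the 2 hemispheres. Contralaterally Cenpa went best with Top2a (rho 0.56, permutation p = 0.0105, adjusted p = 0.453, r 0.59, permutation p = 0.00657, adjusted p = 0.348, and r 0.51 without the 2 farthest libraries) and with Tyms (rho 0.55, r 0.58). Ipsilaterally it went best with Cdk1 (rho 0.63, permutation p = 0.00886, adjusted p = 0.446, r 0.64, permutation p = 0.0061, adjusted p = 0.348, and r 0.60 without the 2 farthest libraries) and with Mcm7 (rho 0.46, r 0.39). Ccnf went best with Aurka contralaterally (rho 0.69, permutation p = 0.0013, adjusted p = 0.294, r 0.49, permutation p = 0.0285, adjusted p = 0.348, and r 0.35 without the 2 farthest), where all 6 libraries with Aurka also held Ccnf, and then with Rrm2 (rho 0.56, r 0.68). Ipsilaterally its closest members were Ccne1, cyclin E1 (rho 0.69, permutation p = 0.00292, adjusted p = 0.294, r 0.73, permutation p = 0.00094, adjusted p = 0.142, and r 0.63 without the 2 farthest), and E2f1 (rho 0.55, r 0.45).

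Exo1 went best with Cdc20, the activator of the anaphase-promoting complex, contralaterally (rho 0.65, permutation p = 0.00249, adjusted p = 0.294, r 0.55, permutation p = 0.0104, adjusted p = 0.348, and r 0.60 without the 2 farthest) and then with E2f1 (rho 0.60, r 0.40). Ipsilaterally the highest rho of Exo1 was 0.49, with Birc5 (survivin), where r was -0.15, and the next 0.41, with Ccnf, where r was 0.28. Its rho with Mki67 was 0.42 contralaterally and -0.49 ipsilaterally. Spdl1, with 3 libraries above the limit ipsilaterally, had its highest rho there with Mcm6 (0.63, permutation p = 0.00405, adjusted p = 0.306), where r was 0.29, and with Aurka (rho 0.55, r 0.54), where r without the 2 farthest libraries was -0.14, so that relation rests on those libraries. Contralaterally its relations rest on 1 library, and the highest rho was 0.35 with Aurka and 0.31 with Ccne2.

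Among themselves the 4 genes were little related. Contralaterally Cenpa and Ccnf had a rho of 0.47 (permutation p = 0.041, r 0.28), and all 7 libraries with Ccnf held Cenpa as well. Ipsilaterally the same pair had a rho of 0.01, with all 9 libraries with Ccnf among the 16 with Cenpa. Cenpa and Exo1 had a rho of 0.16 and 0.32. Within the PTE- libraries alone, 10 contralateral and 8 ipsilateral, 0 of 178 relations had an adjusted p under 0.05, and 14 had an unadjusted one (permutation contralaterally, exact ipsilaterally). Over all groups, then, a shared movement of the 4 genes with the other proliferation genes was not detectable with these libraries.

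**Figure D4:**
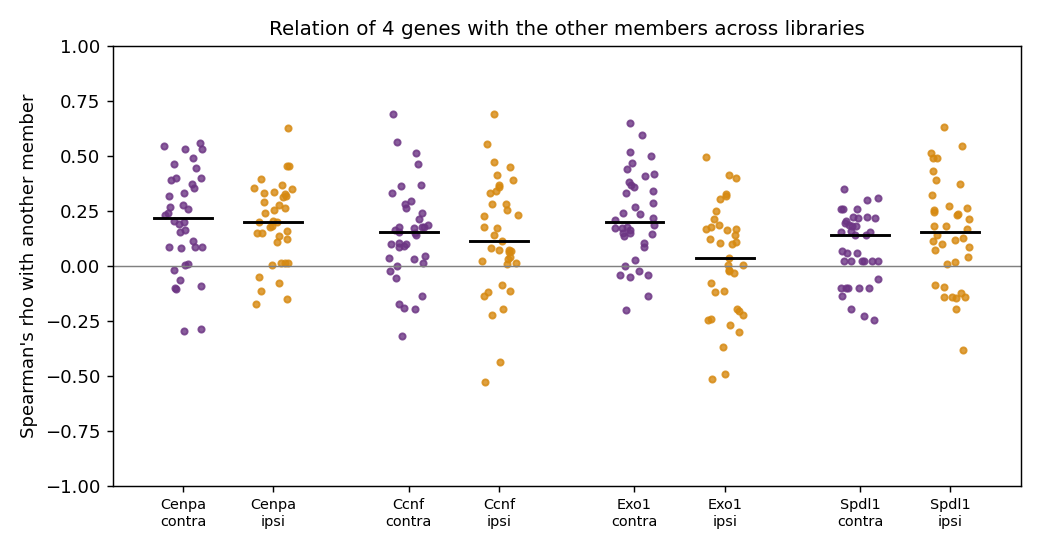
Spearman's rho of Cenpa, Ccnf, Exo1 and Spdl1 with each other member (points) across the 20 contralateral (purple) or 17 ipsilateral (orange) libraries, with the median as a black bar. The medians lie between 0.04 and 0.22, and none of the 302 relations had an adjusted p under 0.05.

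Of 110 genes in 6 lists around the members (origin and fork proteins, centromere loading, partners of Spdl1 at the kinetochore, mismatch repair and resection, SCF and APC/C ligases, and G1 cyclins with their inhibitors), 0 had an adjusted p under 0.05 by edgeR in any comparison. Contralaterally 2 of 105 tested had an unadjusted p under 0.05 in PTE+ versus PTE-, both higher, and 0 in the other 2 comparisons. That is 1.90% of the list, against 2.21% of all genes. They were Mcm10, which brings the polymerase to the origin (4 of 5 PTE+ and 2 of 10 PTE- libraries above 3 counts, log2 fold change 4.12, p = 0.0369 by edgeR), and Blm, a helicase that works with Exo1 in end resection (5 of 5 and 3 of 10, log2 fold change 3.62, p = 0.0268 by edgeR). Ipsilaterally 1 of 108 had an unadjusted p under 0.05 in PTE+ versus PTE-, Kntc1 (0.926% of the list, against 1.75% of all genes), a kinetochore partner of spindly (0 of 4 and 2 of 8 libraries above 3 counts, p = 0.0425 by edgeR). Mcm10 was above 3 counts in 0 of 5 ipsilateral sham libraries, in 2 of 8 PTE- and in 2 of 4 PTE+ (p = 0.0276 and p = 0.00984 against sham by edgeR), and Kntc1 in 2 of 5 sham libraries (p = 0.0211 for PTE+ against sham by edgeR). Between the sides 1 gene had an unadjusted p under 0.05 in sham (Mcm10, lower ipsilaterally), 4 in PTE- (3.67% of the list, against 4.56% of all genes) and 1 in PTE+ (Orc1, an origin subunit, lower ipsilaterally). Those in PTE- included Cdc6 (p = 0.00861) and Orc1 (p = 0.0282) by edgeR, each above 3 counts in at most 4 libraries of a group. Blm was higher ipsilaterally too (log2 fold change 4.33, p = 0.0146 by edgeR). Rpa1, the large subunit of the single-strand binding complex, was the one found in all libraries, with a median of 101.4 CPM contralaterally and 140.9 CPM ipsilaterally in PTE- mice (log2 fold change 0.75, standard error 0.29, p = 0.0146, adjusted p = 0.655 by edgeR).

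Markers of other cells were present in all groups, and none had an adjusted p under 0.05 by edgeR in either comparison of PTE+ with PTE-. Contralaterally all 9 neuron markers had a positive fold change of PTE+ to PTE- (median 1.08 on the log2 scale, 1 with an unadjusted p under 0.05 by edgeR), and their summed level was 125 to 1301 TPM in PTE+ against 128 to 379 TPM in PTE- and 121 to 854 TPM in sham. All 9 endothelial and mural markers were positive as well (median 0.92, 1 with an unadjusted p under 0.05), at 856 to 6233 TPM against 490 to 2175 TPM and 689 to 1852 TPM. The 12 markers of neural progenitors and neuroblasts summed to 226 to 441 TPM in contralateral PTE+, 232 to 964 TPM in PTE- and 77.7 to 752 TPM in sham (0 of 12 with an unadjusted p under 0.05 for PTE+ versus PTE-). Ipsilaterally they summed to 409 to 1051.5 TPM in PTE+, 322 to 750 TPM in PTE- and 219 to 558 TPM in sham, and 10 of 11 tested were positive in PTE+ versus PTE- (median 1.26, 0 with an unadjusted p under 0.05 by edgeR). In the same ipsilateral comparison 7 of 8 oligodendrocyte precursor markers were positive (median 0.86) and 8 of 10 microglia and macrophage markers were negative (median -0.61). All 7 ependymal and choroid markers were negative (median -1.35). In each set 0 had an unadjusted p under 0.05 by edgeR. The summed ependymal and choroid level nevertheless had a median of 1196.5 TPM in PTE+ and 1025.9 TPM in PTE-. PTE- mice a8_11 (9941 TPM) and a9_12 (10873 TPM) were far above the next PTE- library (a8_9, 1342 TPM). Oligodendrocyte precursor markers summed to 224 to 965 TPM, 204 to 1348 TPM and 379 to 938 TPM contralaterally, and microglia and macrophage markers to 397 to 771 TPM, 27.1 to 1237 TPM and 157 to 750 TPM. Oligodendrocyte markers spanned 18.96 to 1274 TPM and ependymal and choroid markers 320 to 2749 TPM over the contralateral libraries, and 52.1 to 1721 TPM and 413 to 10873 TPM over the ipsilateral ones. T and B cell markers stayed between 0.07 and 65.6 TPM contralaterally and between 0.15 and 54.2 TPM ipsilaterally. The part of these cells in the differences described was not tested.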

How the data were processed

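Astrocyte RNA of 20 mice was measured by RNA-seq in 37 libraries. Per the submitters' processing notes, the authors trimmed reads with Trim Galore 0.6.4, aligned them to mm10 with Bowtie2 2.4.1 and RSEM 1.2.28 and used DESeq2 1.36.0. The deposited tables hold expected counts per gene, given as whole numbers, and TPM made by the authors. Groups and mice were taken from the labels. Genes were named and placed by GENCODE M21. Expected counts were tested with edgeR 4.0.16 in R 4.3.3 (filterByExpr, TMM, quasi-likelihood F-test, Benjamini-Hochberg over all genes tested), 3 groups per hemisphere, and all 6 groups of the 17 mice with both libraries for sides. Exact permutation tests used log2(CPM + 1), and relations 100000 permutations (Python 3.11.15). Figures used matplotlib 3.10.9. Alternatives were RLE size factors, no filter, 2 groups alone, prefix of the mouse name, DESeq2 1.42.0, limma 3.58.1 on log2(TPM + 1) and log2(TPM + 0.1), the mouse as block and leaving out each library. Both sides of a mouse are paired by animal: deviations correlated with a median of 0.077 within mice and -0.020 between mice. The fits, permutation tests and relations were run on simulated data as a check of the code. The simulated counts varied less between libraries than these data (common biological coefficient of variation 1.32 contralaterally and 1.40 ipsilaterally). The checks of permutation tests and relations used normally distributed values without the many values at 0. They do not measure what these tests can detect here.

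The members and lists were chosen with earlier results of these data known. Named were Cenpa, Ccnf, Exo1 and Spdl1, members above 3 counts in 80% of a hemisphere's libraries, up to 3 members per direction with the smallest unadjusted p under 0.05, up to 2 genes of each list likewise, and the 2 closest members of each of the 4 genes. Sgo2a contralaterally, Aurka between the sides, and Rrm2, Tk1, Mcm5, Foxm1, Mki67, Cdk1, Ccnb1 and Ccna2 were named after their values were seen. Within a hemisphere, the p-values measure the spread between mice. The main edgeR fit of the sides treats the 2 libraries of a mouse as independent. Only the fit with the mouse as a replicate block and the exact tests of the sides keep the pairing.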

Additional observations from a re-analysis of the deposited data

Results flagged for a closer look

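Of 116 groups of 4 to 10 values on the log2(CPM + 1) scale, 22 held a library whose gap to its nearest neighbour took an unusually large share of the group's range. Chance gives about 1 in 20 for evenly varying values, a rate that does not hold for genes with many values at 0. For Spdl1, a single library above 0 is flagged whatever its level. The 22 are therefore a list to look at and no measure of excess. Of the 22, 5 lie in the ipsilateral library of PTE- mouse a8_11: Pcna, Mcm7 and Cdc20 were at 0 (other PTE- libraries 4.55 to 5.79, 4.10 to 5.49 and 2.34 to 4.28), Rrm1 was at 0.625 (4.59 to 6.31), and Hmgb2 was at 6.72 (4.88 to 5.47). Contralateral PTE- mouse a9_20 had Mcm6 and Mcm7 at 0 (others 4.09 to 6.65 and 3.21 to 6.67) and Ccnf at 6.80 (others 0 to 3.19). Mcm4 was at 0 in contralateral PTE- mouse a8_14 (others 3.87 to 6.27) and at 0 in ipsilateral sham mouse a9_9 (others 4.74 to 6.34).

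Ipsilateral PTE+ libraries gave Mcm2 at 4.37 in mouse a9_17 (others 0.0292 to 0.211) and Mcm6 at 0.219 in mouse a9_18 (others 5.87 to 6.32). Contralateral PTE+ mouse a9_17 had Mcm6 at 5.80 (others 4.203 to 4.66) and Exo1 at 3.59 (others 0 to 0.260), and Cenpa was at 0.404 in mouse a9_18 (others 0.0358 to 0.140). In contralateral sham libraries Pcna was at 4.70 in mouse a9_9 (others 5.24 to 5.33), E2f1 at 0.816 in mouse a8_16 (others 4.01 to 4.61) and Exo1 at 1.73 in mouse a8_15 (others 0.0270 to 0.212). Exo1 was at 1.13 in ipsilateral sham mouse a9_10 (others 0.243 to 0.338), and Tyms at 1.13 in contralateral PTE- mouse a9_14 (others 2.99 to 4.93). Spdl1 was at 0.355 in contralateral PTE- mouse a9_12 and at 0.289 in ipsilateral sham mouse a9_10, with all other libraries of those groups at 0.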

How the results depend on the processing

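No member passed the adjusted threshold in edgeR under RLE size factors, without the filter or without any 1 library (0 to 0 in each of the 10 comparisons), with the name prefix as a covariate (run for the 6 group comparisons), or with the mouse as a replicate block (the 4 side comparisons). DESeq2 gave 2 in contralateral PTE+ versus PTE-, 2 in PTE+ versus sham, 1 between the sides in sham, 1 in PTE-, 3 in PTE+ and 3 in their difference. The cause was not tested. At an unadjusted p under 0.05, contralateral PTE+ versus PTE- gave 1 member with the 2 compared groups alone (1.47% of all genes), against 3. Without any 1 library it gave 2 to 4 (1.95% to 2.82% of all genes). Ipsilateral PTE+ versus PTE- gave 6 with limma on log2(TPM + 1) and 5 on log2(TPM + 0.1), against 2. Without any 1 library it gave 1 (without a9_19, 1.35% of all genes) to 4 (without a9_17, 3.35%). Ipsilateral PTE+ versus sham gave 0, but 4, all higher, with limma on log2(TPM + 1) (2.34% of all genes) and 2 on log2(TPM + 0.1) (1.61%). It gave 2 with DESeq2 (1.94%), 1 without the filter (3.91%), and 0 to 4 without any 1 library. The 4, all lower, came without a9_17 (3.33% of all genes). The limma counts in PTE+ versus PTE- stand against 3.26% and 2.34% of all genes. With the mouse as a replicate block the paired side comparisons gave 0 in sham, 1 in PTE-, 1 in PTE+ and 1 in their difference, against 1, 2, 6 and 4. PTE+ mice gave 10 between the sides without mouse a9_17, 4 higher and 6 lower ipsilaterally, against 3.97% of all genes. That fit treats the 2 libraries of a mouse as independent. Of the relations, 0 to 1 passed without any 1 library, with 1 without contralateral PTE- mouse a8_9 or a9_20. The median number of members per library moved by less than 1 SD under other detection limits. Counts of a few reads limit Exo1, Spdl1 and low Cenpa.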
